A study of Mus musculus with 6 samples.

Results

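The 10 genes described here carry the transforming growth factor beta (TGF-beta) signal from ligand to response: the ligand Tgfb1, its receptors Tgfbr1, Tgfbr2 and Eng, the SMADs Smad2, Smad3 and Smad7, the co-repressors Ski and Skil, and the target Tgfbi. They were taken by symbol from the 42256 genes of the count table, all 10 were found, and all 10 passed the filter on low counts, with at least 191 counts in every library. RNA came from bone marrow macrophages of CDH11-/- mice (KO), which lack cadherin-11, and of CDH11+/+ mice (WT), with 3 libraries of each. All were adult males of a mixed 129S1/Sv x C57BL/6 background, and the cells were untreated after 7 days in L929-conditioned medium, which supplies the macrophage growth factor CSF1. The source label reads total bone marrow cells and the cell type label macrophage, and no cell-restricted allele or Cre driver is named. The design text mentions 4 KO animals, of which 3 libraries are analysed here, and the labels name no animal, so p-values measure only the spread between these libraries.

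TGF-beta is secreted in a latent complex and, once released, binds the type II receptor, which recruits and activates the type I receptor. The type I receptor phosphorylates SMAD2 and SMAD3, which enter the nucleus with SMAD4, while SMAD7, SKI and the SKI relative encoded by Skil hold the signal down. In macrophages TGF-beta is known for restraining inflammatory activation and for maintaining the identity of microglia.

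Libraries held 27170943 to 37113689 counts, and mitochondrial genes took 2.09 to 2.43% of them. Cdh11 itself had 4 to 6 counts in KO libraries and 6 to 11 in WT libraries, too few to check the labels. All 10 macrophage markers checked were well detected. Csf1r, which encodes the CSF1 receptor, stood at 1876 to 2600 CPM (counts scaled to library size) in KO and 3503 to 4084 CPM in WT. The summed level of these markers was 20320 to 25986 CPM in KO and 31770 to 34416 CPM in WT, most of it Lyz2. Of the 10 markers 1 was called higher and 3 lower, where 18.5% of all tested genes were higher and 16.8% lower. The summed level of 6 B cell markers was 48.8 to 76.8 CPM in KO and 106 to 131 CPM in WT. In bulk RNA, fewer cells of a type and less RNA per cell cannot be told apart.

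Promoters of 4 of the genes show the sequence in which SMAD binding words were looked for. Each runs from 250 bases before to 50 bases after the RefSeq start (GRCm38.p6), 5′ to 3′ on the gene's strand, and capitals mark CAGAC or its reverse complement GTCTG, the word that SMAD3 and SMAD4 bind. Tgfbi (chr13:56609336-56609635, plus strand) and Tgfbr2 (chr9:116175314-116175613, minus strand) had the largest falls among the 10 genes, Eng (chr2:32646345-32646644, plus strand) the one rise, and Tgfb1 (chr7:25686752-25687051, plus strand) is shown as the ligand, which was not called.
Tgfbi: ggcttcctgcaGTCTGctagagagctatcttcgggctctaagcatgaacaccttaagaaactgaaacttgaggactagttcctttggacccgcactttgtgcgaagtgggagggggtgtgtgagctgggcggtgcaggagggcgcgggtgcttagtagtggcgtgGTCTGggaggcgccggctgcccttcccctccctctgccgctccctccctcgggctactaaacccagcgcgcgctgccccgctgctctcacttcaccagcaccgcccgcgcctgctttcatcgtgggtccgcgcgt
Tgfbr2: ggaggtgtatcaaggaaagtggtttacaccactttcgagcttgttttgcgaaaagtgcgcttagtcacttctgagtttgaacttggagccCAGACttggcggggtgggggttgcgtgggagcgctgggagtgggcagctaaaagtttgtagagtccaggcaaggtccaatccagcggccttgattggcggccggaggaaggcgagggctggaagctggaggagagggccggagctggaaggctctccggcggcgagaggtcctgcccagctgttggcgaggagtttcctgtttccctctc
Eng: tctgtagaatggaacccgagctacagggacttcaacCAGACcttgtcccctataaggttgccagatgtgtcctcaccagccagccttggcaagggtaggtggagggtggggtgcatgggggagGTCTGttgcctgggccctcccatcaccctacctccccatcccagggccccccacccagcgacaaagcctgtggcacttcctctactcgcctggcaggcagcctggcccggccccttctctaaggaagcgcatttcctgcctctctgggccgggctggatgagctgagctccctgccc
Tgfb1: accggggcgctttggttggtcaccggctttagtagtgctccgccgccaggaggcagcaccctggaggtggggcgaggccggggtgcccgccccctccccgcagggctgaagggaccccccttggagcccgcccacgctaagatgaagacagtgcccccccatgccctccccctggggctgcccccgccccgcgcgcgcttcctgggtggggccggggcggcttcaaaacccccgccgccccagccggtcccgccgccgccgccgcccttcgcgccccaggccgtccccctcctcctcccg

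The word began at -239 and -85 from the start in Tgfbi, at -160 in Tgfbr2 and at -214 and -127 in Eng, and it was absent from the 300 bases of Tgfb1. It was also absent from the promoters of Ski, which was called, and of Smad3, which was not. The called Tgfbr1 lacked it in its first promoter and held it at -203 in its second. CAGAC is a common word, present on one strand or the other in 49.6% of 32851 mouse promoters of this length. The GC-rich word GGCGC, also bound by SMADs (reverse complement GCGCC, either strand), occurred 4 times in Tgfbi, 2 times in Tgfb1, 7 times in Ski and 3 times in the first Tgfbr1 promoter, and in 36.9% of all promoters. The full palindrome GTCTAGAC was in none of the 8 promoters found for 7 of the 10 genes, and in 0.213% of all promoters. CAGAC and GTCTAGAC can overlap only in part, GGCGC and GCGCC can share bases, and a match is a string of letters, not a bound site.

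KO macrophages had lower levels of both signalling receptors, of the co-repressor Ski and above all of the target Tgfbi, a higher level of the co-receptor Eng, and no called change of the ligand or of any of the 3 SMADs. In the quasi-likelihood test of edgeR, adjusted by Benjamini-Hochberg over 12862 genes, 1 of the 10 genes rose and 4 fell, where 18.5% of all tested genes rose and 16.8% fell. Over all genes 2375 rose and 2157 fell, and with upper-quartile scaling 2933 rose and 1621 fell, which left 1 of the 10 higher and 3 lower. So 5 of the 10 were called, where 35.2% of all genes were, a difference of few genes. Values of the genotypes did not overlap for 7 of the 10 genes, against 53.4% of all genes, both in CPM. Of these 7, Tgfb1 and Smad2 overlapped in the authors' deposited normalized signal. The median log2 fold change of the 10 was -0.28 and their median absolute change 0.32, against 0.00 and 0.25 over all genes. Values are CPM after TMM scaling, as mean ± SD with n = 3 per genotype. A call is said to depend on a library where leaving that library out moved the adjusted p past 0.05.

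**Figure D1:**
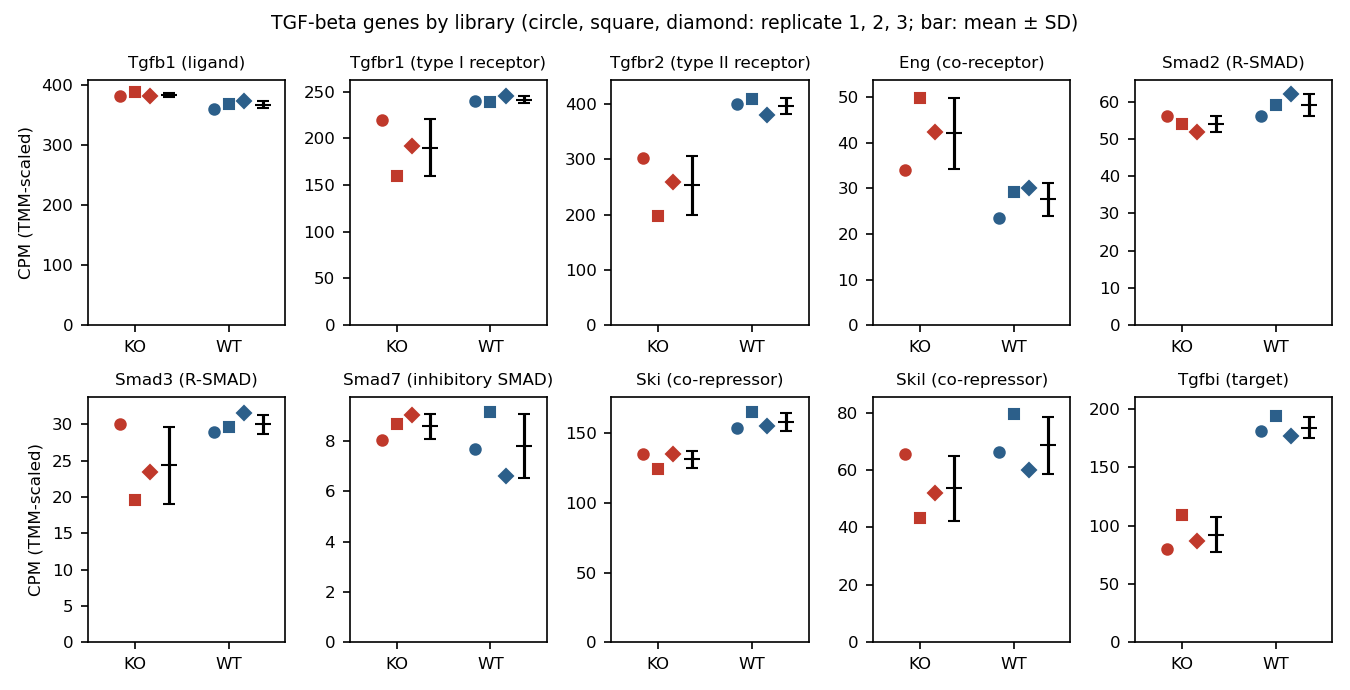
Level of each of the 10 genes (CPM after TMM scaling, axis from 0) in the 3 KO libraries (red, left) and the 3 WT libraries (blue, right), with the mean ± SD beside them. Tgfbi, Tgfbr2, Tgfbr1, Ski and Smad2 lie lower in every KO library, Eng and Tgfb1 higher, and Smad3, Smad7 and Skil overlap.

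Tgfb1 encodes the ligand (ENSMUSG00000002603, GRCm38 chromosome 7, 25687002 to 25705077, plus strand). It stood at 381, 388 and 382 CPM in KO libraries and at 361, 368 and 374 CPM in WT libraries. The groups did not overlap in CPM, every KO library being slightly higher, but the distance was small. In the authors' deposited normalized signal they overlapped, at 11090.4 to 11576.5 in KO and 10930.3 to 11391.1 in WT. The log2 fold change was 0.06 (SE 0.05, adjusted p = 0.378), and it stayed between 0.05 and 0.07 with each library left out. Its coefficient of variation was 0.902% among KO libraries and 1.73% among WT libraries.

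Tgfbr2, the type II receptor that binds the ligand first (ENSMUSG00000032440, chromosome 9, 116084293 to 116175360, minus strand), had 303, 197 and 260 CPM in KO libraries and 401, 410 and 380 CPM in WT libraries. All KO libraries lay below all WT libraries, KO 2 farthest. Tgfbr2 fell to 253 ± 53.1 CPM in KO, against 397 ± 15.1 CPM in WT (log2 fold change -0.65, SE 0.15, adjusted p = 0.0171). The call depended on WT 1, WT 2 and KO 3: leaving each out gave log2 fold changes of -0.64, -0.63 and -0.67 at adjusted p of 0.0609, 0.0557 and 0.0576. Leaving out KO 2 gave -0.50 and leaving out KO 1 gave -0.80, both still called.

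Tgfbr1, the type I receptor kinase ALK5 that phosphorylates the SMADs (ENSMUSG00000007613, chromosome 4, 47353222 to 47414931, plus strand), had 220, 159 and 192 CPM in KO libraries and 240, 239 and 246 CPM in WT libraries. The groups did not overlap, and KO 1 lay close under WT. The fall, to 190.2 ± 30.2 CPM in KO against 241 ± 3.85 CPM in WT (log2 fold change -0.34, SE 0.11), was at the edge of the threshold (adjusted p = 0.0465). Its call depended on every library but KO 1, whose removal gave a log2 fold change of -0.46. Leaving out KO 2 gave -0.23 (adjusted p = 0.0714), leaving out KO 3 gave -0.35 (adjusted p = 0.117), and leaving out WT 1, WT 2 or WT 3 gave -0.35, -0.36 and -0.33. It was also lost with upper-quartile scaling (adjusted p = 0.0667) and with plain library totals (0.0575).

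Eng encodes endoglin, a co-receptor best known from endothelium, where it works with the type I receptor ALK1 (ENSMUSG00000026814, chromosome 2, 32646595 to 32682669, plus strand). It had 34.1, 49.7 and 42.2 CPM in KO libraries and 23.4, 29.1 and 30.0 CPM in WT libraries. The groups did not overlap, and KO 1 again lay nearest to WT. Eng rose to 42.0 ± 7.81 CPM in KO, against 27.5 ± 3.59 CPM in WT (log2 fold change 0.61, SE 0.16, adjusted p = 0.0253). The call depended on WT 1, WT 2, KO 2 and KO 3 (log2 fold changes of 0.51, 0.65, 0.47 and 0.60 on leaving each out, adjusted p 0.0569 to 0.0775), and it was lost without a filter on low counts (adjusted p = 0.0515). Eng shares 61 exon bases, 1.51% of its exon length, with Fpgs on the opposite strand, a gene of 170 to 302 counts per library.

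Endothelial markers were measured beside Eng. Of 8 such markers 4 passed the filter, of which Egfl7 was lower and Cdh5, Pecam1 and Kdr were not called. Among all tested genes 16.8% were lower. The summed level of the 8 was 10.2 to 11.0 CPM in KO and 9.03 to 24.0 CPM in WT. Most of the sum of 24.0 CPM in WT 2 was Kdr, at 17.3 CPM there, 6.32 CPM in WT 1 and 4.41 CPM in WT 3. Emcn had no count in any library and Cldn5 had none in KO. Acvrl1, which encodes ALK1, rose to 49.96 ± 1.43 CPM in KO, against 40.1 ± 2.47 CPM in WT (log2 fold change 0.32, SE 0.06, adjusted p = 0.0106), and kept its call with each library left out.

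Smad2 and Smad3 encode the SMADs that the type I receptor phosphorylates. Smad2 (chromosome 18) had 56.1, 54.1 and 51.9 CPM in KO libraries and 56.2, 59.2 and 62.2 CPM in WT libraries. Its groups just failed to overlap, KO 1 and WT 1 being nearly level, and the log2 fold change of -0.13 (SE 0.06) was not called (adjusted p = 0.126). In the authors' deposited normalized signal the Smad2 groups overlapped, with 1649 in KO 1 and 1643 in WT 1. Smad3 (ENSMUSG00000032402, chromosome 9, 63646767 to 63757994, minus strand) had 30.0, 19.6 and 23.5 CPM in KO libraries and 29.0, 29.6 and 31.5 CPM in WT libraries. KO 1 lay within the WT range and the other KO libraries below it. The log2 fold change of Smad3 was -0.30 (SE 0.15, adjusted p = 0.148), but without KO 1 it was -0.48 and called (adjusted p = 0.00697). Smad3 was also called with all 6 libraries in limma-voom with sample quality weights (-0.34, adjusted p = 0.0170). Both settings called more of the 12862 tested genes: 5429 without KO 1 and 6436 with the weights. The edgeR test with all 6 libraries called 4532.

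Smad7, the inhibitory SMAD that TGF-beta itself induces (chromosome 18), had the lowest level of the 10 genes. It stood at 8.04, 8.68 and 9.004 CPM in KO libraries and 7.69, 9.13 and 6.59 CPM in WT libraries. The ranges overlapped, WT being the more spread, and the log2 fold change of 0.14 (SE 0.14) was not called (adjusted p = 0.455). It ran from 0.03 on leaving out WT 3 to 0.26 on leaving out WT 2, and no single library left out gave a call.

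Ski, a co-repressor that binds SMAD complexes (ENSMUSG00000029050, chromosome 4, 155154075 to 155222592, minus strand), had 135, 124 and 135 CPM in KO libraries and 154, 165 and 155 CPM in WT libraries. The groups did not overlap and both were tight. Ski fell to 131 ± 6.18 CPM in KO, against 158 ± 6.31 CPM in WT (log2 fold change -0.27, SE 0.06, adjusted p = 0.0158). Among the single libraries the call depended on WT 2 (log2 fold change -0.24 and adjusted p = 0.0561 on leaving it out).

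Skil encodes SnoN, the relative of SKI whose gene is itself a TGF-beta target (ENSMUSG00000027660, chromosome 3, 31095058 to 31122577, plus strand). It had 65.7, 43.4 and 51.9 CPM in KO libraries and 66.1, 79.4 and 60.1 CPM in WT libraries, KO 1 lying within the WT range. The log2 fold change was -0.35 (SE 0.17, adjusted p = 0.147). Without KO 1 it was -0.52 and called (adjusted p = 0.0297), and without KO 2 it was -0.22 (adjusted p = 0.334). With all 6 libraries it was called in limma-voom with sample quality weights (adjusted p = 0.0364). Over all tested genes, 5429 were called without KO 1 and 6436 with those weights, against 4532 in edgeR with all 6 libraries.

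Tgfbi, a secreted matrix protein named for its induction by TGF-beta and made in quantity by macrophages (ENSMUSG00000035493, chromosome 13, 56609523 to 56639562, plus strand), changed most. It had 80.2, 109 and 87.1 CPM in KO libraries and 181, 194 and 177 CPM in WT libraries, with a wide gap between the groups. The level in KO was 0.501 times that in WT (log2 fold change -0.998, SE 0.11, adjusted p = 0.00482). The call held under all 16 alternatives, with log2 fold changes from -1.14 without KO 2 to -0.91 without KO 1. In the authors' deposited normalized signal the values were 2390, 3224 and 2587 in KO and 5465, 5834 and 5329 in WT.

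**Figure D2:**
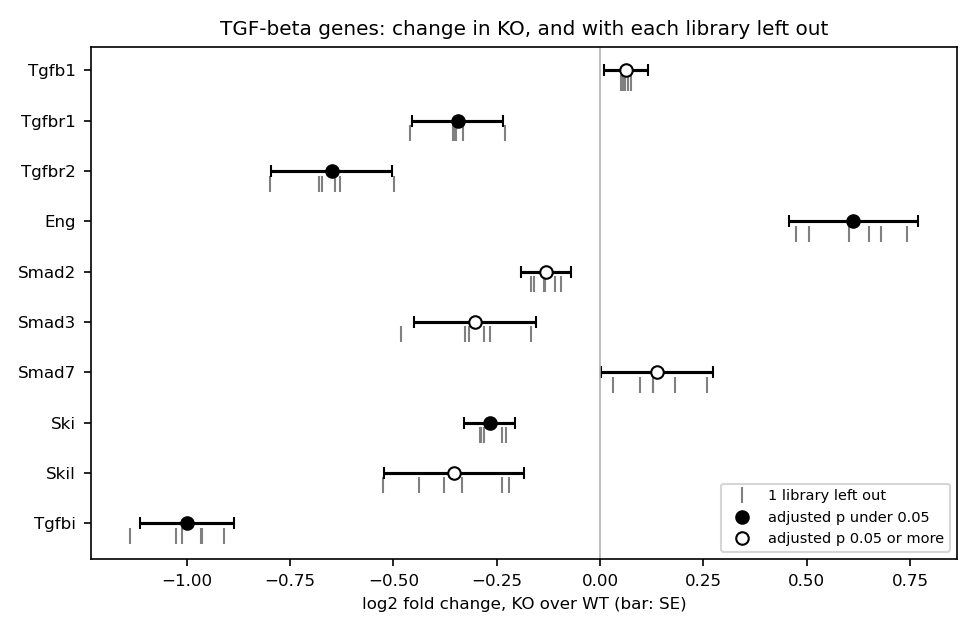
Log2 fold change of KO over WT for each gene (point, with its SE as bar; filled where the adjusted p was under 0.05) and the same value with each of the 6 libraries left out in turn (grey ticks). No tick crosses 0 for any gene; Tgfbi lies at -0.998, and Smad3, Skil, Tgfbr2 and Eng spread most between leaving out KO 1 and leaving out KO 2.

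The KO libraries did not lie at equal distances from WT. KO 1 was nearest to the WT mean, in the direction of the change, for 9 of the 10 genes, and KO 2 was farthest for 7. The same order held over the 4532 called genes, of which 75.4% had KO 1 nearest and 77.3% had KO 2 farthest. Tgfbi was the exception: its nearest library was KO 2, as in 4.77% of called genes, and its farthest KO 1, as in 6.20%. Without KO 1, 6 of the 10 genes fell and 1 rose, where 42.2% of all genes were called. Without KO 2, 3 fell and none passed as higher in edgeR (1, Eng, at an unadjusted p under 0.05). In that setting 21.2% of all genes were called, against 35.2% with all 6 libraries.

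Ratios within a library do not depend on the scaling between libraries. The ratio of Tgfbr1 to Tgfbr2 counts was 0.726, 0.809 and 0.738 in KO libraries and 0.598, 0.583 and 0.646 in WT libraries, without overlap. Its log2 value differed by 0.31 (two-sided exact permutation test p = 0.1, the smallest that 3 against 3 libraries allow; 0.3 after Benjamini-Hochberg adjustment over the 3 ratios computed). The ratio of Smad3 to Smad2 was 0.536, 0.362 and 0.452 in KO and 0.516, 0.50 and 0.507 in WT, nearly constant in WT and spread on both sides of it in KO (difference of log2 values -0.19, exact permutation p = 0.4). The ratio of Ski to Skil was 2.05, 2.86 and 2.59 in KO and 2.32, 2.08 and 2.58 in WT, with overlap (difference 0.10, exact permutation p = 0.7).

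**Figure D3:**
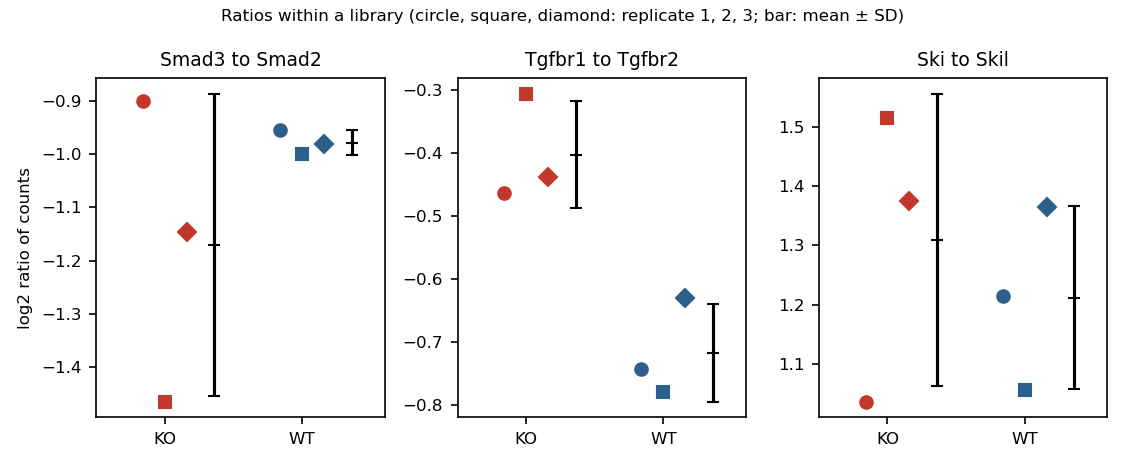
Log2 ratio of the counts of gene pairs within each library (y axis), for the 3 KO (red, left) and 3 WT (blue, right) libraries, with the mean ± SD; the axes do not start at 0. The KO and WT libraries separate for Tgfbr1 to Tgfbr2, with means of -0.40 and -0.72, and overlap for the other ratios.

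Levels of different genes were compared as CPM per kilobase of merged exons. In KO the order was Tgfb1 (76.1 ± 0.686), Tgfbr2 (30.9 ± 6.49), Tgfbr1 (29.1 ± 4.62), Tgfbi (24.4 ± 3.97), Ski (23.6 ± 1.11), Eng (10.4 ± 1.93), Smad2 (6.15 ± 0.237), Skil (5.54 ± 1.16), Smad3 (4.39 ± 0.956) and Smad7 (1.90 ± 0.109). In WT it was Tgfb1 (72.9 ± 1.26), Tgfbi (48.8 ± 2.41), Tgfbr2 (48.5 ± 1.84), Tgfbr1 (36.9 ± 0.589), Ski (28.4 ± 1.13), Skil (7.07 ± 1.02), Eng (6.80 ± 0.887), Smad2 (6.74 ± 0.340), Smad3 (5.42 ± 0.236) and Smad7 (1.73 ± 0.283). The ligand stood first and Smad7 last in both genotypes, and each was clear of its neighbour. In KO the ranges of neighbours overlapped from Tgfbr2 through Ski and from Smad2 through Smad3; in WT they overlapped between Tgfbi and Tgfbr2 and from Skil through Smad2. In WT the receptors and Tgfbi were separated from Ski, which in KO overlapped Tgfbi.

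Around these 10 genes, 6 lists of other pathway genes, 114 genes in all, were described. Of the 91 that passed the filter, 14 rose and 29 fell, or 47.3% called, against 35.2% of all tested genes (18.5% higher and 16.8% lower). Their median log2 fold change was -0.17, against 0.00 over all genes. These lists were chosen with earlier results of these data known, and the part that the lower macrophage marker level plays in them was not tested.

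Of 14 tested genes of the latent complex and its activation (20 listed, median 0.09), 4 rose and 3 fell. Among all tested genes 18.5% rose and 16.8% fell. Lrrc32, which encodes GARP, an anchor of latent TGF-beta best known from regulatory T cells, rose to 10.9 ± 2.26 CPM in KO, against 4.17 ± 1.07 CPM in WT (log2 fold change 1.39, SE 0.23, adjusted p = 0.00760). Nrros, the anchor known from macrophages and microglia, fell to 335 ± 9.40 CPM in KO, against 390 ± 23.4 CPM in WT (log2 fold change -0.22), a call that depended on WT 1, WT 2, KO 2 and KO 3 (-0.26 to -0.18 over the 6 libraries left out in turn) and was lost with upper-quartile scaling. Furin, the protease that cleaves the precursor, fell to 115 ± 13.0 CPM in KO, against 165 ± 3.28 CPM in WT. Itgb5, a chain of an activating integrin, fell by 0.38 on the log2 scale, and Plaur, the urokinase receptor, rose by 0.94. Lrrc32, Furin, Itgb5 and Plaur kept their calls with each library left out. Thbs1, thrombospondin, rose by 0.32, a call that depended on WT 1, WT 3, KO 2 and KO 3 (0.26 to 0.38), and Ltbp1, a latent TGF-beta binding protein, rose at a low level, 0.873 ± 0.269 CPM in KO and 0.356 ± 0.0208 CPM in WT, a call that depended on WT 1, WT 2 and KO 3 (1.02 to 1.47). The count of 4 rises became 2 on leaving out WT 1 or KO 3. GARP is also found on platelets: of 8 megakaryocyte and platelet markers 4 were called higher, Pf4 was not called and 3 did not pass the filter, with a summed level of 179 to 283 CPM in KO and 168 to 243 CPM in WT, most of it Pf4; their part in the Lrrc32 value was not tested.

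Of 10 tested receptors of the wider family (12 listed, median -0.10), 1 rose and 2 fell. That is 30.0% called, against 35.2% of all tested genes (18.5% higher and 16.8% lower). Besides Acvrl1, Tgfbrap1, which encodes a protein that associates with TGF-beta receptors, fell to 70.4 ± 7.20 CPM in KO, against 110.2 ± 6.71 CPM in WT (log2 fold change -0.65, SE 0.09, adjusted p = 0.00543), and held with each library left out. Acvr2b, an activin type II receptor, fell to 2.67 ± 0.416 CPM in KO, against 4.04 ± 0.274 CPM in WT, a call that depended on every library but KO 1 (log2 fold changes -0.69 to -0.48) and was lost with limma on the deposited signal.

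Among 25 tested SMADs and SMAD regulators (26 listed, median -0.18), 11 fell and 1 rose, where 16.8% of all genes fell and 18.5% rose. Smad4, the shared partner of the receptor SMADs, fell to 55.4 ± 4.35 CPM in KO, against 66.2 ± 2.76 CPM in WT (log2 fold change -0.26), a call that depended on WT 1, WT 2, KO 2 and KO 3 (-0.31 to -0.20) and was lost with upper-quartile scaling and with limma on the deposited signal. The acetyltransferase co-activators Crebbp and Ep300 fell by 0.47 and 0.37, Dab2, an adaptor between the receptors and the SMADs, fell by 0.46, and the ubiquitin ligase gene Wwp1 fell by 0.41. Smad4 and Ep300 were named after their values were seen. The calls of Crebbp and Wwp1 depended on WT 1 and KO 3, that of Dab2 on WT 1, WT 3 and KO 3, and that of Ep300 on every library but KO 1. Over the libraries left out the values ran from -0.60 to -0.41 for Crebbp, -0.50 to -0.34 for Wwp1, -0.55 to -0.38 for Dab2 and -0.47 to -0.29 for Ep300. Strap, which helps SMAD7 to bind the receptor, rose by 0.29 and held with each library left out. Pmepa1, a TGF-beta target that feeds back on SMAD activation, fell farthest, with 8.74, 2.81 and 5.98 CPM in KO libraries and 18.2, 20.6 and 9.31 CPM in WT libraries (log2 fold change -1.46, SE 0.45, adjusted p = 0.0492). WT 3 lay just above KO 1, and the call depended on WT 1, WT 2, KO 2 and KO 3 (-1.86 to -1.13). It was also lost in limma-voom, with upper-quartile scaling, with plain totals and without a filter. The count of 11 falls became 2 on leaving out WT 1 or KO 3, 4 on leaving out WT 2, 7 on leaving out WT 3, 6 on leaving out KO 2 and 6 with upper-quartile scaling. Over all genes the 4532 calls became 2005 on leaving out WT 1, 2525 on leaving out WT 2, 3675 on leaving out WT 3, 2732 on leaving out KO 2 and 2381 on leaving out KO 3.

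Of 16 other target genes tested (26 listed, median 0.47), 7 rose, 1 fell and 8 were not called, where 18.5% of all genes rose and 16.8% fell. The list was not divided by the direction in which TGF-beta moves each target, so its counts and median do not measure a TGF-beta response. Cdkn2b, the cyclin kinase inhibitor p15, rose to 4.26 ± 0.487 CPM in KO, against 1.42 ± 0.465 CPM in WT (log2 fold change 1.59, SE 0.25, adjusted p = 0.00655). Fn1, fibronectin, rose by 1.22 and Rgs1, a regulator of G protein signalling, by 1.27, to 261 ± 55.1 CPM in KO, against 109 ± 15.3 CPM in WT. Klf10, an early TGF-beta response gene, rose to 43.5 ± 2.93 CPM in KO, against 31.3 ± 0.264 CPM in WT. It was named after its values were seen. Ahr, the aryl hydrocarbon receptor, fell by 0.64. Cdkn2b, Fn1, Rgs1, Klf10 and Ahr kept their calls with each library left out. The 10 targets that failed the filter included collagen and smooth muscle genes, such as Col1a1 at 0.0343 to 0.140 CPM in KO and 0.0377 to 0.103 CPM in WT. Of 10 fibroblast and stromal markers 1 passed the filter and was not called, Dcn and Lum had no count in any library, and the summed level was 2.63 to 3.50 CPM in KO and 2.79 to 5.14 CPM in WT.

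**Figure D4:**
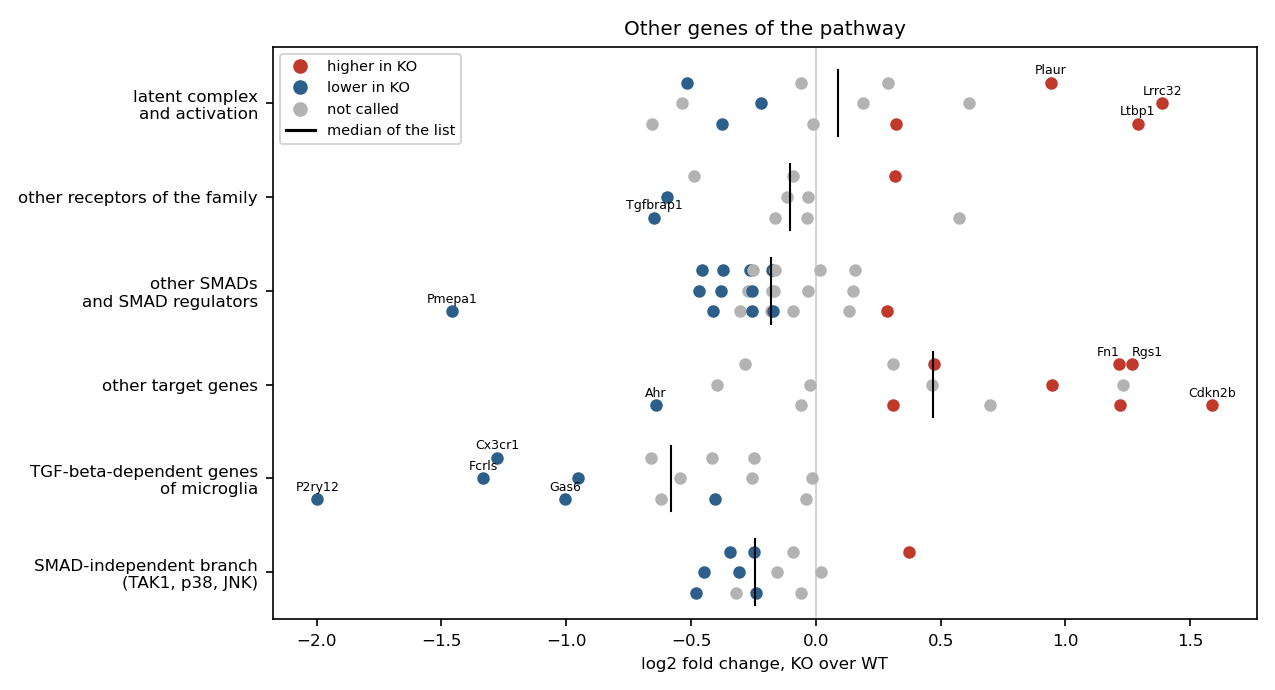
Log2 fold change of KO over WT (x axis) of each tested gene in the 6 lists of other pathway genes (rows; height within a row has no meaning), red where called higher, blue where called lower, grey where not called, with the median of each list as a line. The targets have a median of 0.47, the microglial genes -0.58, and the other lists between -0.24 and 0.09. The targets were not divided by the direction in which TGF-beta moves them.

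Genes that depend on TGF-beta in microglia fell in part. Of 14 tested (18 listed), 6 fell, with a median of -0.58, where 16.8% of all genes fell. None rose in edgeR, DESeq2 or limma-voom (0 in edgeR also at an unadjusted p under 0.05), where 18.5% of all genes rose in edgeR. P2ry12, the ADP receptor, had 10.3, 5.25 and 6.18 CPM in KO libraries and 28.6, 36.6 and 21.7 CPM in WT libraries (log2 fold change -1.997, SE 0.30, adjusted p = 0.00727). Gas6, which bridges apoptotic cells to their receptors, had a log2 fold change of -1.005, and both kept their calls with each library left out. Fcrls, an Fc receptor-like scavenger receptor, had 795, 328 and 466 CPM in KO libraries and 1418, 1413 and 1171 CPM in WT libraries, a call that depended on WT 1, WT 2 and KO 3 (log2 fold changes -1.75 to -1.08) and was lost without a filter. Cx3cr1, the fractalkine receptor, had 115, 42.8 and 57.1 CPM in KO libraries and 154, 229 and 137 CPM in WT libraries, a call that depended on every library but KO 1 (-1.79 to -1.01) and was lost with upper-quartile scaling and without a filter. The count of 6 falls became 2 on leaving out WT 1 or KO 3, 3 on leaving out WT 2, WT 3 or KO 2, 3 without a filter and 4 with upper-quartile scaling. Olfml3, also in this list, had a log2 fold change of -0.02, and Sall1, which defines microglia, did not pass the filter; both were named after their values were seen.

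In the SMAD-independent branch, by which the receptors reach the kinases TAK1, p38 and JNK, 6 of 12 tested genes fell and 1 rose, with a median of -0.24, where 16.8% of all genes fell and 18.5% rose. Mapk14, p38 alpha, fell to 166 ± 12.5 CPM in KO, against 232 ± 13.9 CPM in WT (log2 fold change -0.48, SE 0.08, adjusted p = 0.00655), and Traf6, the ubiquitin ligase that activates TAK1, fell by 0.45; both held with each library left out. Tab2, a TAK1 partner, fell by 0.35, a call that depended on WT 1 and KO 3 (-0.43 to -0.30). Mapk8, JNK1, fell by 0.31, a call that depended on WT 1, WT 2, KO 2 and KO 3 (-0.35 to -0.25) and was lost with limma on the deposited signal. Map2k3, a kinase upstream of p38, rose by 0.38, a call that depended on WT 1, WT 2 and KO 3 (0.30 to 0.46). The count of 6 falls became 3 on leaving out WT 1 or KO 3.

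For each called gene of the 10, tested genes with the most similar pattern were sought by the root mean square difference of centred log2 CPM over the 6 libraries. Genes whose symbol starts with Gm and a digit or ends in Rik were left out, which left 11575 candidates. For Tgfbr2 these were Susd1 (0.0375) and Ifngr1, an interferon gamma receptor chain (0.0448), where Tgfbr2 itself varied by 0.382 around its mean. For Tgfbr1 they were Zfp748 (0.0290) and Phc1 (0.0296), for Eng Lipt2 (0.0451) and Ercc6 (0.0474), and for Ski Elf2 (0.0117) and Slc29a1 (0.0118). Zfp748 and Phc1 were themselves not called in edgeR (adjusted p = 0.0506 and 0.0651). The nearest to Tgfbi lay farther off, namely the transporter gene Slc36a2 (0.101), against its own variation of 0.523.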

How the data were processed

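RNA was sequenced from 6 directional libraries. The authors deposited whole-number counts for each Ensembl gene, and the deposited normalized signal holds, by its values, the same counts scaled by a factor for each gene and library. DRAGEN, DESeq2 and mm10 are named in the submitters' processing notes without roles or versions; for the annotation and strand setting nothing is given in the sources used here, so overlapping genes may share counts. Groups follow the genotype label, and replicates were numbered in sample order. Symbols, coordinates and merged exon lengths come from GENCODE M21 (GRCm38, also called mm10), promoters from RefSeq.

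Genes were filtered with filterByExpr (minimum count 10; 12862 of 42256 kept), scaled by TMM and tested, KO over WT, with the robust quasi-likelihood test of edgeR 4.0.16 in R 4.3.3, two-sided, with Benjamini-Hochberg adjustment and a threshold of 0.05. Alternatives used DESeq2 1.42.0, limma 3.58.1 (voom, or log2 of the signal plus 1), other scalings and filters, and libraries left out. Replicate pairs differed by more than sampling noise (chi-square per degree of freedom 12.7 to 53.2). A level of 3 counts corresponds to 0.0804 to 0.113 CPM. Genes other than the 10 were named by size of change among called list members (up to 4 per list and direction) and by likeness to a called gene (2 each); exceptions are marked, and 2 genes that the rule names are not reported here. The genes, lists and rules were chosen with earlier results of these data known.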

Additional observations from a re-analysis of the deposited data

How the results depend on the processing

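No log2 fold change of the 10 genes changed direction under any alternative. Leaving out 1 library at a time gave 2005 to 5429 called genes in the whole table, 0 to 1 of the 10 genes higher and 1 to 6 lower in KO, and 9 to 19 higher and 11 to 34 lower among the pathway lists. Without WT 2 and KO 2 together, 1382 genes were called, 0 of the 10 genes higher and 2 lower (Tgfbr2 and Tgfbi), and 7 and 8 of the pathway lists. Without a filter on low counts, 0 of the 10 were called higher. In each setting with 0 called higher, run in edgeR alone, 1 gene (Eng) was higher at an unadjusted p under 0.05. DESeq2 and limma-voom called 1 higher and 4 lower, and limma-voom with sample quality weights 1 and 6. The weighted fit also called more genes in the whole table, 6436 of 12862, against 4530 in limma-voom without weights. Upper-quartile scaling moved the split of all called genes to 2933 higher and 1621 lower, against 2375 and 2157 with TMM, and the median of all genes by 0.06. The causes were not tested. The difference of log2 ratios with each library left out ran from -0.01 (without KO 2) to 0.23 for Ski to Skil, so its sign rests on KO 2, from -0.33 to -0.04 for Smad3 to Smad2 and from 0.27 to 0.36 for Tgfbr1 to Tgfbr2. No paired analysis was possible because the labels give no replicate numbers shared between the genotypes. Each of the 10 genes had at least 191 counts in every library, and with 3 libraries a group the spread is itself poorly known.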
